A study of Mus musculus with 16 samples.

Results

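The growth hormone and insulin-like growth factor (IGF) axis is described here through 10 genes, in cultured mouse hepatocytes treated with SQ1 or pravastatin. The 10 genes were given by name: Ghr, Stat5a, Stat5b, Socs2, Egfr, Igf1, Igfals, Igfbp1, Igfbp2 and Igfbp4. Their probes were found by RefSeq accession. All 10 were on the array and all 10 passed the intensity filter, of 20659 named genes on the array and 15053 tested.

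Growth hormone from the pituitary binds its receptor on hepatocytes, and the receptor-bound kinase JAK2 phosphorylates the transcription factors STAT5A and STAT5B. STAT5 then turns on Igf1, Igfals and the feedback inhibitor gene Socs2. Liver is the main source of circulating IGF1, which travels in plasma bound to IGF-binding proteins, and IGFALS stabilises the larger of these complexes. Insulin also acts on this system in liver, where it lowers transcription of Igfbp1 through FOXO1. The EGF receptor gene Egfr is known in mouse liver as a gene that growth hormone raises.

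Hepatocytes of male C57Bl/J mice were given SQ1 at 100 µM, as labelled, or pravastatin at 30 µM. They were compared with untreated hepatocytes of the same strain and sex, and the labels give no genetic change for any group. SQ1 (squalestatin 1) inhibits squalene synthase, and pravastatin inhibits HMG-CoA reductase, an earlier enzyme of cholesterol synthesis. Treatment began 48 h after plating in Williams Medium E and lasted 48 h. The labels do not say whether growth hormone was in the medium or how many mice gave cells. Treated and untreated RNA were labelled with different dyes and hybridised together on 16 arrays, 8 per drug, with the dyes swapped on 4 of each 8. The series lists 8 control replicates in all, so that the SQ1 and pravastatin comparisons share their control cultures as far as the labels tell. Arrays of a drug lay on 2 slides, each with 4 arrays: replicates 1, 2, 5 and 6 on slides 1 (SQ1) and 3 (pravastatin), and replicates 3, 4, 7 and 8 on slides 2 (SQ1) and 4 (pravastatin).

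Values are log2 ratios of treated over control with their standard error from 1 limma fit over all 16 arrays, and a gene is called at a Benjamini-Hochberg adjusted p of 0.05 over the 15053 genes. Between 58.9% and 69.6% of probes were well above background in a channel. As the background for the marker counts below, 15.7% of all genes tested rose and 16.5% fell with SQ1. With pravastatin, 30.9% rose and 35.8% fell. All 15 hepatocyte markers passed the intensity filter, and 15 of 15 fell with pravastatin (median log2 ratio -1.45) and 7 of 15 with SQ1 (median -0.20). Summed over the 15 markers, log2 intensity was 20.32 to 20.90 in SQ1-treated channels against 20.47 to 21.14 in their controls. It was 19.39 to 20.31 in pravastatin-treated channels against 20.90 to 21.24 in their controls. Of 13 Kupffer cell and leukocyte markers, 6 fell and 1 rose with SQ1 (median -0.12) and 10 fell with pravastatin (median -0.46). Their summed log2 intensity was 13.72 to 14.65 in SQ1-treated channels against 13.90 to 14.82 in controls, and 13.40 to 14.47 in pravastatin-treated channels against 13.89 to 14.84 in controls. Of 9 endothelial markers, 5 rose and 0 fell with SQ1, and 4 rose and 4 fell with pravastatin. Their summed log2 intensity was 13.69 to 13.97 in SQ1-treated channels against 13.48 to 13.90 in controls, and 13.22 to 13.80 in pravastatin-treated channels against 13.47 to 13.92 in controls. Of 7 cholangiocyte markers, 3 fell with SQ1, and 4 fell and 1 rose with pravastatin. Their sum was 16.78 to 17.82 in SQ1-treated channels against 17.24 to 18.28 in controls, and 17.66 to 18.01 in pravastatin-treated channels against 17.15 to 18.45 in controls. Of 12 stellate cell and fibroblast markers, 3 rose and 1 fell with SQ1, and 4 fell with pravastatin. Their sum was 16.13 to 16.76 in SQ1-treated channels against 16.22 to 16.89 in controls, and 16.25 to 16.78 in pravastatin-treated channels against 16.34 to 16.95 in controls. In such bulk RNA, fewer cells of a type and less RNA per cell cannot be told apart. The part of these shifts in the results below was not tested.

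With SQ1, 8 of the 10 genes were called. Igfals and Igfbp4 rose, and Ghr, Stat5b, Socs2, Egfr, Igf1 and Igfbp1 fell. Among all genes tested, 32.3% were called with SQ1, 15.7% higher and 16.5% lower. The median log2 ratio of the 10 was -0.28, against -0.0023 for all genes. Only 4 were called when slide was a random block, and also 4 without SQ1 replicate 3 or without SQ1 replicate 7. Stat5b, Socs2, Igf1 and Igfals were lost each time. With median centring of each array in place of loess, 2 were called, Egfr and Igfbp4.

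With pravastatin, 6 of the 10 were called: Igf1 rose, and Ghr, Stat5a, Stat5b, Igfbp2 and Igfbp4 fell. Among all genes, 66.7% were called with pravastatin, 30.9% higher and 35.8% lower, so that the share of the 10 is near the background. Their median log2 ratio was -0.18, against -0.012 for all genes. Of the 6 calls, 6 also passed an adjusted p of 0.01. With median centring, 5 were called, since Stat5a and Stat5b were lost and Socs2 was gained.

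The drugs differed from each other at 9 of the 10 genes, all but Stat5b, and at 10 of 10 with the replicate number as a block. SQ1 was higher than pravastatin for Ghr, Stat5a, Igfals, Igfbp2 and Igfbp4, and lower for Socs2, Egfr, Igf1 and Igfbp1. Among all genes, 53.1% differed between the drugs, 29.3% higher with SQ1 and 23.8% lower. With slide as a random block, the difference was lost for Igfals (adjusted p = 0.088), Igfbp1 (adjusted p = 0.0529) and Igfbp2 (adjusted p = 0.088). The doses were not matched, so that the differences are between these 2 treatments as given.

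**Figure D1:**
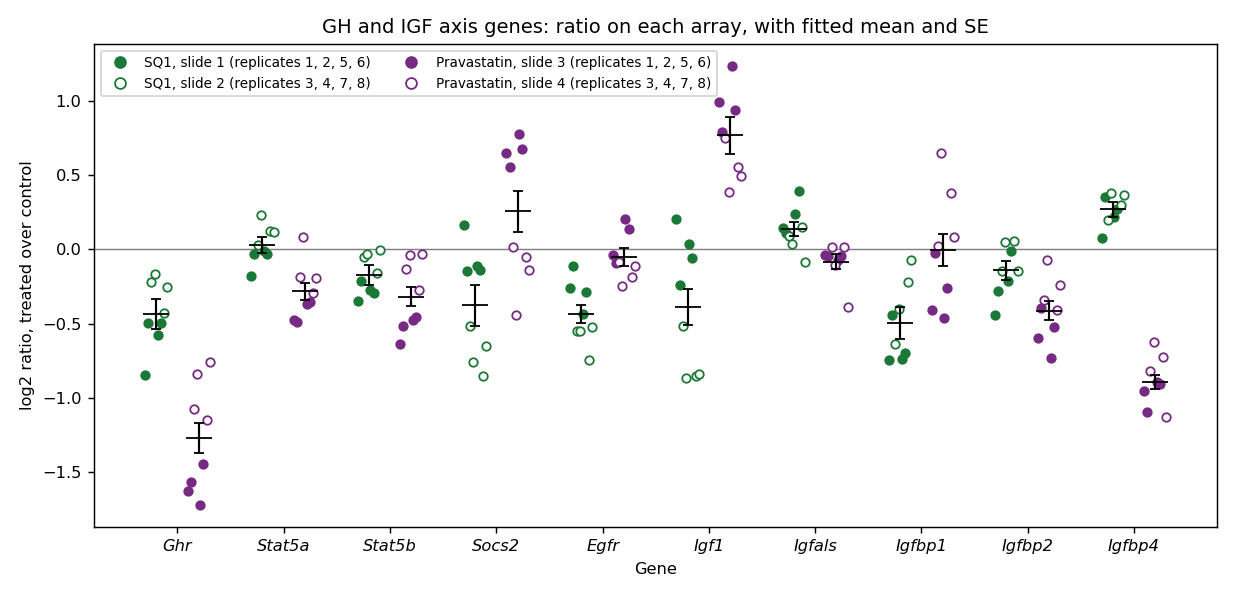
Log2 ratio of treated over control (vertical axis) on each of the 16 arrays for the 10 genes, after removal of each gene's dye effect, with SQ1 left of pravastatin. Filled points are slides 1 and 3, open points slides 2 and 4, and black bars the fitted mean and SE. All 8 pravastatin arrays lie below 0 for Ghr (-1.72 to -0.76) and above 0 for Igf1 (0.39 to 1.23).

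Ghr, which encodes the growth hormone receptor, had the lowest pravastatin ratio of the 10 genes. On the 8 SQ1 arrays its log2 ratio ran from -0.84 to -0.17 with a median of -0.46, and on the 8 pravastatin arrays from -1.72 to -0.76 with a median of -1.30. All 16 arrays were below 0. Ghr fell by 1.27 ± 0.10 with pravastatin (2.42-fold lower; adjusted p = 1.16e-08) and by 0.44 ± 0.10 with SQ1 (1.35-fold lower; adjusted p = 0.00335). The difference between SQ1 and pravastatin was 0.84 ± 0.14 (adjusted p = 0.000128). Its log2 intensity was 12.27 to 12.51 in pravastatin-treated channels against 13.02 to 14.20 in their controls, with no overlap. In SQ1-treated channels it was 13.15 to 13.52 against 13.34 to 14.09 in controls, and these overlapped.

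Ghr had a pair of probes on the array, with accessions of different transcripts. The brighter one, which stands for the gene in the fit, carries NM_001048178, the transcript of the soluble growth hormone-binding protein. The other carries NM_010284, the transcript of the full-length receptor. The full-length probe fell by 1.48 ± 0.14 with pravastatin (adjusted p = 9.17e-08 over all probes). With SQ1 its ratio was -0.18 ± 0.14 (adjusted p = 0.37), so that over both slides the SQ1 call for Ghr rests on the binding-protein probe. By slide, the full-length probe was called lower on slide 1 (-0.47, adjusted p = 0.00265) and was at 0.11 on slide 2 (adjusted p = 0.476), and the slides differed (adjusted p = 0.0221). Taking the mean of both probes, the SQ1 ratio was -0.31 and the call was lost (adjusted p = 0.0573). The binding-protein probe minus the full-length probe averaged -0.26 ± 0.30 on SQ1 arrays and 0.21 ± 0.17 on pravastatin arrays (SD, n = 8 each). By a two-sided exact sign-flip permutation test the adjusted p was 0.109 for SQ1 and 0.0938 for pravastatin, over 6 such probe pairs of Ghr and Egfr, so that a difference between the transcripts was not shown.

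Stat5a and Stat5b, which carry the receptor's signal to the nucleus, fell modestly with pravastatin. Stat5a ran from -0.49 to 0.083 on pravastatin arrays (median -0.32), with 7 of 8 below 0, and fell by 0.28 ± 0.055 (adjusted p = 0.000219). With SQ1 its ratio was 0.029 ± 0.055 (adjusted p = 0.728; 95% interval -0.087 to 0.15), with 4 of 8 arrays on each side of 0. SQ1 minus pravastatin was 0.31 ± 0.077 (adjusted p = 0.00275). The pravastatin ratio was -0.42 on slide 3 and -0.15 on slide 4, which differed (adjusted p = 0.0161), and the call ended with median centring (-0.18, adjusted p = 0.127).

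Stat5b ran from -0.35 to -0.0087 on SQ1 arrays (median -0.19) and from -0.64 to -0.031 on pravastatin arrays (median -0.36). It fell by 0.32 ± 0.064 with pravastatin (adjusted p = 0.000333) and by 0.17 ± 0.064 with SQ1, which only just passed (adjusted p = 0.0492). The pravastatin ratio was -0.52 on slide 3 and -0.12 on slide 4, which differed (adjusted p = 0.000491), and the call ended with median centring (-0.18, adjusted p = 0.176). Its other probe was at -0.36 with pravastatin and -0.15 with SQ1. Adjusted over all probes, neither probe passed with SQ1 (adjusted p = 0.0524 for the brighter and 0.056 for the other). SQ1 minus pravastatin was 0.15 ± 0.091 for the gene (adjusted p = 0.192). With the replicate number as a block the same difference had an adjusted p = 0.0398 (random block) and 0.00762 (fixed block). The other probe did differ between the drugs without a block (0.21, adjusted p = 0.0308 over all probes).

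Socs2, a STAT5 target whose protein damps growth hormone receptor signalling, split by slide. On SQ1 arrays it ran from -0.85 to 0.16 (median -0.33), with 7 of 8 below 0. On pravastatin arrays it ran from -0.44 to 0.78 (median 0.28), with 5 of 8 above 0. Socs2 fell by 0.38 ± 0.14 with SQ1 (adjusted p = 0.0455), and its pravastatin ratio was 0.25 ± 0.14 (adjusted p = 0.115; 95% interval -0.038 to 0.55). SQ1 minus pravastatin was -0.63 ± 0.19 (adjusted p = 0.0118). All 3 Socs2 probes gave nearly the same ratios, -0.37 to -0.38 with SQ1 and 0.24 to 0.25 with pravastatin. Within slides, the ratio was -0.060 on slide 1 and -0.69 on slide 2 for SQ1, and 0.66 on slide 3 and -0.16 on slide 4 for pravastatin. With pravastatin, Socs2 was thus called on slide 3 (adjusted p = 6.38e-07) and not on slide 4 (adjusted p = 0.0743), and the slides differed by 0.82 (adjusted p = 0.000125). The dimmest Socs2 probe was called lower on slide 4 (-0.20, adjusted p = 0.00633 over all probes), and the remaining probe was not (-0.14, adjusted p = 0.0667). With slide as a random block the SQ1 call was lost (adjusted p = 0.0932).

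Egfr encodes the receptor of epidermal growth factor, which is abundant on hepatocytes. On SQ1 arrays its ratio ran from -0.74 to -0.12 (median -0.48), all 8 below 0, and on pravastatin arrays from -0.25 to 0.20 (median -0.089). Egfr fell by 0.43 ± 0.061 with SQ1 (1.35-fold lower; adjusted p = 5.44e-05). With pravastatin the ratio was -0.054 ± 0.061 (adjusted p = 0.455; 95% interval -0.18 to 0.076), and SQ1 minus pravastatin was -0.38 ± 0.087 (adjusted p = 0.00149). The other 2 probes, with the accession NM_007912, fell by 0.23 and 0.28 with SQ1 (adjusted p = 0.00358 and 0.00465 over all probes). Between the drugs these 2 probes did not pass, at -0.16 (adjusted p = 0.0817) and -0.20 (adjusted p = 0.0934). The SQ1 call for the gene held in each of the 29 alternatives run, with adjusted p up to 0.017. Its brightest probe was called lower on slide 1 (-0.27) and slide 2 (-0.59). The other 2 probes were called lower on slide 2 (-0.38 and -0.46). They were not called on slide 1 (-0.073, adjusted p = 0.199, and -0.10, adjusted p = 0.0819, over all probes). With pravastatin, no Egfr probe was called on slide 3. On slide 4 the brightest probe was called lower (-0.16, adjusted p = 0.0255). The other 2 were also called lower there (-0.16, adjusted p = 0.00426, and -0.25, adjusted p = 0.000119). The pravastatin slides differed for these 2 (adjusted p = 0.0381 and 0.0013) and not for the brightest (adjusted p = 0.0784, all over all probes).

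**Figure D2:**
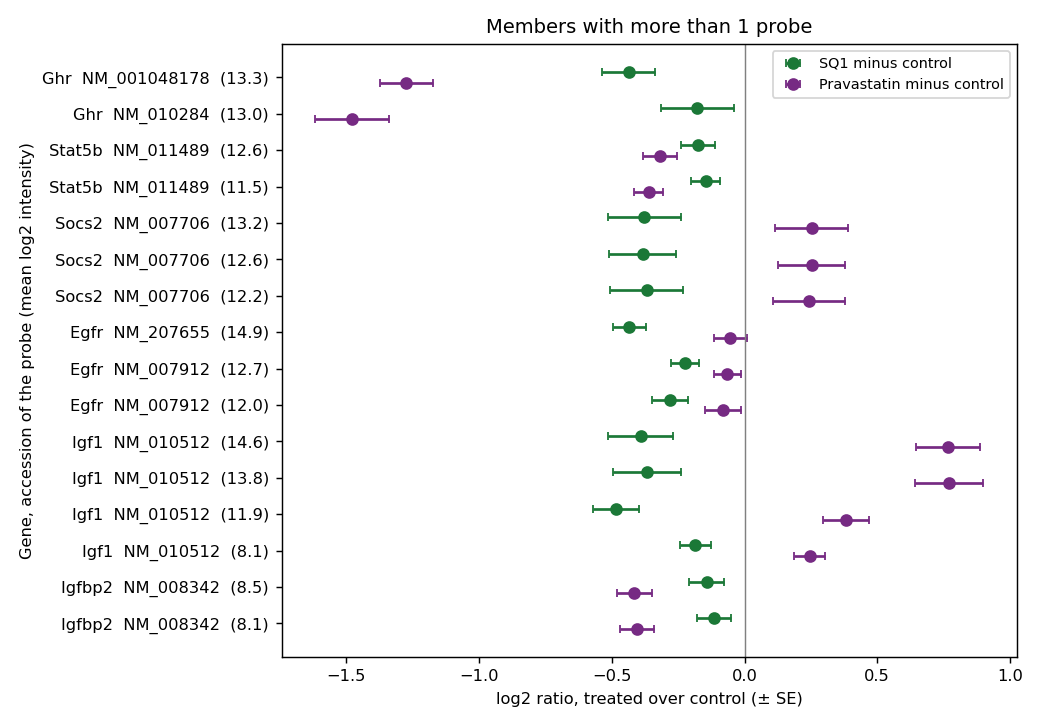
Fitted log2 ratio of treated over control with its SE (horizontal axis) for each probe of the 6 genes that have more than 1 probe, brightest probe first within a gene, with the RefSeq accession and the mean log2 intensity. The 4 Igf1 probes lie below 0 with SQ1 and above 0 with pravastatin, and the full-length Ghr probe (NM_010284) is at -0.18 with SQ1 and -1.48 with pravastatin.

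Igf1, the gene of the secreted hormone IGF1, moved in opposite directions with the 2 drugs. On SQ1 arrays it ran from -0.87 to 0.20 (median -0.38), with 6 of 8 below 0. On pravastatin arrays it ran from 0.39 to 1.23 (median 0.77), all 8 above 0. Igf1 rose by 0.77 ± 0.12 with pravastatin (1.70-fold; adjusted p = 3.3e-05) and fell by 0.39 ± 0.12 with SQ1 (1.31-fold lower; adjusted p = 0.0214). SQ1 minus pravastatin was -1.16 ± 0.17 (adjusted p = 3.39e-05). Its log2 intensity was 14.98 to 15.44 in pravastatin-treated channels against 14.11 to 14.91 in their controls, with no overlap. In SQ1-treated channels it was 13.78 to 14.42 against 14.09 to 14.91 in controls.

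All 4 Igf1 probes, which share 1 accession, were called lower with SQ1 and higher with pravastatin. The pravastatin ratio was 0.77 for each of the 2 brighter probes, 0.38 for the next and 0.24 for the dimmest. The dimmest also had the smallest SQ1 ratio, -0.18. By slide, the pravastatin ratio was 0.99 on slide 3 and 0.54 on slide 4, each called. The SQ1 ratio was -0.014 on slide 1 (adjusted p = 0.919) and -0.77 on slide 2 (adjusted p = 7.22e-06), and the slides differed by 0.75 (adjusted p = 0.00147). Only 1 of the 4 probes, the one at 0.38 with pravastatin, was called lower with SQ1 on slide 1 (-0.18, adjusted p = 0.0234 over all probes). The SQ1 call was lost with slide as a random block (adjusted p = 0.0602) and with scan day as one (adjusted p = 0.382).

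Igfals encodes the acid-labile subunit that holds IGF1 in its large plasma complex. Its log2 intensity was 7.67 to 8.76 in the treated channels of both drugs against 7.72 to 8.62 in their controls. On SQ1 arrays its ratio ran from -0.087 to 0.39 (median 0.13), with 7 of 8 above 0, and on pravastatin arrays from -0.39 to 0.017 (median -0.047). Igfals rose by 0.13 ± 0.048 with SQ1 (adjusted p = 0.0414). With pravastatin the ratio was -0.083 ± 0.048 (adjusted p = 0.135; 95% interval -0.18 to 0.018), and SQ1 minus pravastatin was 0.22 ± 0.067 (adjusted p = 0.0125). The SQ1 call was lost in 13 of 29 alternatives, among them the slide block (adjusted p = 0.211).

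Promoter windows of RefSeq (GRCm38.p6; from 250 bases before to 50 after each annotated start) were found for 9 of the 10 genes, 15 windows in all. They were searched on both strands for TTCNNNGAA, the form of STAT5 sites, and CAAAACA, part of insulin response elements. Socs2 had no window, so that its promoter was not searched. Among the 9 genes searched, only Igfals held TTCNNNGAA, in 2 of its 3 windows, and only Igfbp1 held CAAAACA. Of all 32851 mouse windows, 8.30% held TTCNNNGAA and 6.28% CAAAACA. A match describes the sequence only. The Igfals stretches are shown because the gene is a known target of STAT5, with the match in capitals. The first is the 250 bases before the most upstream start (chr17:24877594-24877843, plus strand), with the match beginning 236 bases before that start. The next one (chr17:24878163-24878191, plus strand) shows the match 58 bases before a later annotated start.
Igfals, upstream start: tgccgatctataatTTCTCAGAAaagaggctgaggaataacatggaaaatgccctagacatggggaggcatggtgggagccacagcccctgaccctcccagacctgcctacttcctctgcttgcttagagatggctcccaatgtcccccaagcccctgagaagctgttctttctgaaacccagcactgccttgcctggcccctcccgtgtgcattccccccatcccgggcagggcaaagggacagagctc
Igfals, later start: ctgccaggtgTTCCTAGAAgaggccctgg

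Igfbp1 encodes an IGF-binding protein of liver whose transcription insulin lowers within hours. Its log2 intensity was 16.97 to 17.61 in SQ1-treated channels against 17.50 to 18.08 in controls. On SQ1 arrays its ratio ran from -0.75 to -0.074 (median -0.54), all 8 below 0, and on pravastatin arrays from -0.46 to 0.65 (median -0.0050), with 4 on each side of 0. Igfbp1 fell by 0.49 ± 0.11 with SQ1 (1.41-fold lower; adjusted p = 0.00213), and SQ1 minus pravastatin was -0.49 ± 0.15 (adjusted p = 0.0124). The pravastatin ratio of -0.0047 ± 0.11 (adjusted p = 0.972; 95% interval -0.23 to 0.22) was an average of opposite slides: -0.29 on slide 3 (adjusted p = 0.0212) and 0.28 on slide 4 (adjusted p = 0.0284). With SQ1 it was lower on each slide, -0.66 and -0.33. The 250 bases before its annotated start (chr11:7197537-7197786, plus strand, GRCm38.p6, RefSeq) follow, because this element is the known point of insulin's action on the gene. The capitals mark CAAAACA, which begins 108 bases before the start.
Igfbp1: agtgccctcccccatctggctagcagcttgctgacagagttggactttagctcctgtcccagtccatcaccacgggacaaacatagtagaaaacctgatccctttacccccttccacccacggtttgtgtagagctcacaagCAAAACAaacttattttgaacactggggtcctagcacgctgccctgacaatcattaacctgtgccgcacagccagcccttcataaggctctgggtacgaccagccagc

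Igfbp2, another binding protein of liver and plasma, fell with pravastatin. On SQ1 arrays it ran from -0.44 to 0.055 (median -0.15), and on pravastatin arrays from -0.73 to -0.072 (median -0.40), all 8 below 0. It fell by 0.41 ± 0.065 with pravastatin (1.33-fold lower; adjusted p = 2.67e-05). The SQ1 ratio was -0.14 ± 0.065 (adjusted p = 0.103; 95% interval -0.28 to -0.0061), and SQ1 minus pravastatin was 0.27 ± 0.091 (adjusted p = 0.0196). Its other probe was at -0.41 with pravastatin and -0.12 with SQ1. By slide, the SQ1 ratio of the gene was -0.24 on slide 1 (adjusted p = 0.015) and -0.049 on slide 2 (adjusted p = 0.651). A difference between these slides was not detected (adjusted p = 0.23). The other probe was also called lower with SQ1 on slide 1 (-0.20, adjusted p = 0.0436 over all probes).

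Igfbp4, a binding protein that restrains IGF action outside the cell, moved in opposite directions with the drugs and did so on every array. On SQ1 arrays it ran from 0.072 to 0.38 (median 0.28), all 8 above 0, and on pravastatin arrays from -1.13 to -0.62 (median -0.90), all 8 below 0. It fell by 0.89 ± 0.050 with pravastatin (1.86-fold lower; adjusted p = 1.67e-10) and rose by 0.27 ± 0.050 with SQ1 (adjusted p = 0.000601). SQ1 minus pravastatin was 1.16 ± 0.070 (2.24-fold; adjusted p = 2.77e-09). Log2 intensity was 11.28 to 11.86 in pravastatin-treated channels against 12.35 to 12.78 in controls. Per slide the ratio was 0.23 and 0.31 with SQ1 and -0.96 and -0.82 with pravastatin, and a difference between slides was not detected for either drug (adjusted p = 0.631 and 0.33). The SQ1 call was lost in 1 of 29 alternatives, scan day as a block (adjusted p = 0.0584), and the pravastatin call in none.

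The control channels moved with the slides for several of these genes. Ghr in pravastatin-treated channels stayed at 12.36 to 12.51 for replicates 1, 2, 5 and 6 and at 12.27 to 12.37 for replicates 3, 4, 7 and 8. Its control channels on the same arrays were at 13.84 to 14.20 for the numbers 1, 2, 5 and 6 and 13.02 to 13.44 for the others. On the SQ1 arrays the controls split the same way, 13.74 to 14.09 and 13.34 to 13.66.

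Igf1 controls ran the other way. They were at 14.11 to 14.34 for replicates 1, 2, 5 and 6 and 14.53 to 14.91 for the others on pravastatin arrays, and at 14.09 to 14.37 and 14.58 to 14.91 on SQ1 arrays. Pravastatin-treated Igf1 averaged 15.20 and 15.21 for these sets of replicates. Controls of the same replicate number on an SQ1 and a pravastatin array differed by 0.065 on average for Igf1 and 0.077 for Socs2, while the 8 controls of a drug spanned 0.80 to 0.83 and 0.73 to 0.79. For Ghr, Igfbp1 and Igfals this difference was larger, 0.19, 0.18 and 0.18 on average and up to 0.37, 0.50 and 0.67. Both SQ1 slides were scanned on 1 day, and the pravastatin slides on different days. The part of scan day in the control splits was not tested. Within a drug, slide and the set of cultures cannot be told apart, since each slide holds its own replicate numbers.

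**Figure D3:**
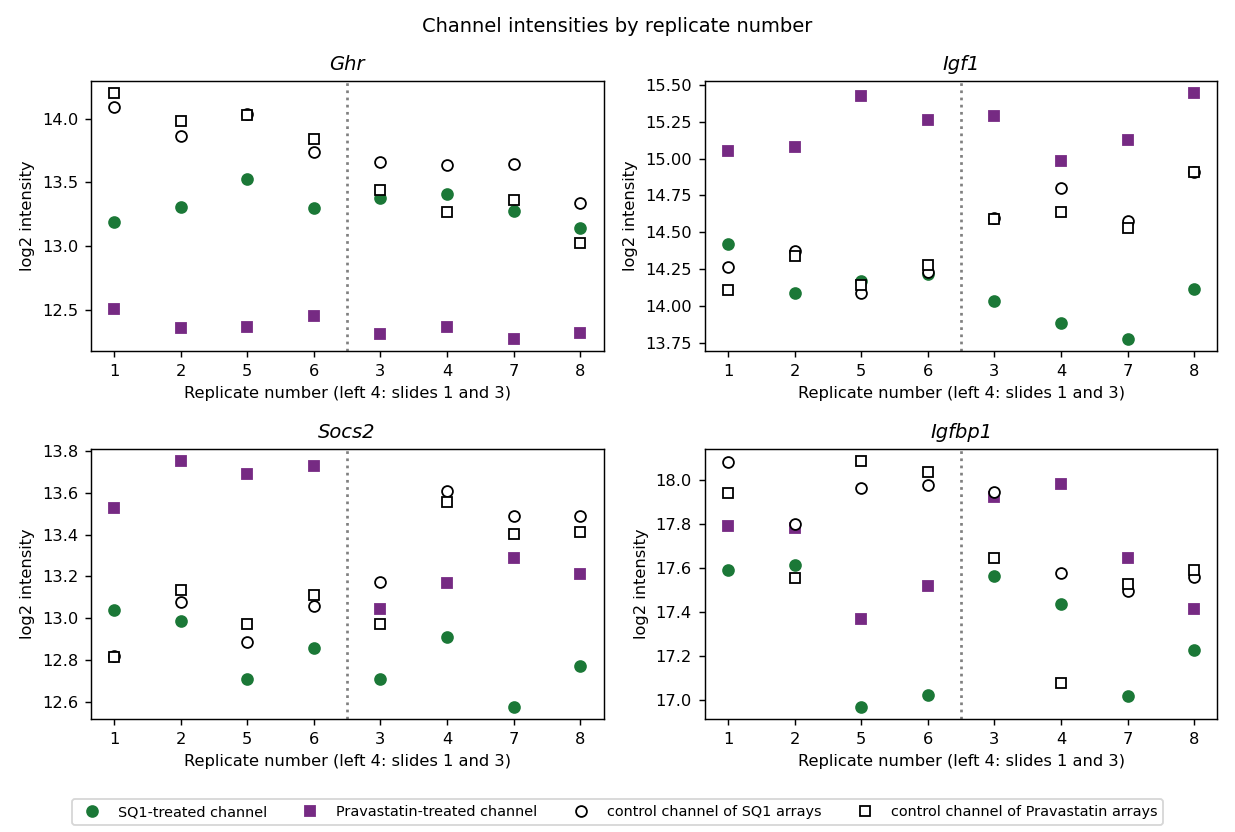
Log2 intensity (vertical axis) of Ghr, Igf1, Socs2 and Igfbp1 in the treated channels (coloured) and control channels (open) of each array, by replicate number, with the numbers of slides 1 and 3 left of the dotted line and those of slides 2 and 4 right of it. Ghr controls are 13.74 to 14.20 on the left and 13.02 to 13.66 on the right, while pravastatin-treated Ghr stays between 12.27 and 12.51.

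Hepatocyte markers also differed by slide with SQ1, with a median ratio of -0.37 on slide 1 and -0.11 on slide 2. With pravastatin it was -1.52 on slide 3 and -1.39 on slide 4. The part of this in the members' slide differences was not tested.

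Related genes were set beside the 10 by lists that were written for this comparison. The background for every list is the share of all genes called, 32.3% with SQ1 and 66.7% with pravastatin. The growth hormone receptor list does not exceed it with either drug. Of 15 other genes of growth hormone receptor signalling, 4 fell and 0 rose with SQ1 (median -0.080), and 4 fell and 3 rose with pravastatin (median -0.039). With SQ1 the largest falls among the called genes were Socs3 (-0.50 ± 0.074), Cish (-0.15 ± 0.051), both feedback inhibitors, and the adaptor gene Shc1 (-0.14 ± 0.028). With pravastatin they were Prlr, the prolactin receptor (-1.59 ± 0.16), the phosphatase gene Ptpn6 (-0.37 ± 0.054) and Stat3 (-0.32 ± 0.097). Jak2, the receptor's kinase, was at -0.050 ± 0.031 with SQ1 (adjusted p = 0.239) and 0.029 ± 0.031 with pravastatin (adjusted p = 0.426).

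Of 15 further genes for IGF ligands, receptors and binding proteins, 12 were tested. With SQ1, 3 rose and 2 fell (median 0.018), led by the binding protein gene Igfbp6 (0.32 ± 0.059), Stc2 (-0.22 ± 0.045), whose product inhibits a protease of IGF-binding proteins, and the IGF2 clearance receptor Igf2r (0.20 ± 0.049). With pravastatin, 5 rose and 3 fell (median 0.086), led by Igfbp3 (0.85 ± 0.15), the main carrier of plasma IGF1, Irs1 (-0.55 ± 0.089), which relays insulin and IGF1 receptor signals, and the receptor adaptor gene Grb10 (0.46 ± 0.040). The adjusted p was at most 8.47e-05 for these 3 with pravastatin. Over all genes, 32.3% were called with SQ1 and 66.7% with pravastatin, so that the pravastatin share of this list is near the background.

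Of 17 EGF receptor family, ligand and feedback genes, 15 were tested, beside 32.3% of all genes called with SQ1 and 66.7% with pravastatin. With SQ1, 6 fell and 1 rose (median 0.022), led by the ligand genes Areg (-0.70 ± 0.12) and Ereg (-0.55 ± 0.060) and the receptor Erbb3 (0.24 ± 0.043). With pravastatin, 7 rose and 5 fell (median 0.11), led by Areg (1.03 ± 0.12), the receptor inhibitor Errfi1 (-0.78 ± 0.053) and the feedback gene Lrig1 (0.45 ± 0.045).

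Of 11 FOXO1 and insulin responsive liver genes, 10 were tested, beside 32.3% of all genes called with SQ1 and 66.7% with pravastatin. With SQ1, 4 rose and 2 fell (median 0.12). Pdk4, a kinase gene that rises in fasting, rose by 1.38 ± 0.049, Foxo1 itself by 0.71 ± 0.068, and the pseudokinase gene Trib3 fell by 0.43 ± 0.11. With pravastatin, 4 rose and 4 fell (median -0.12). The gluconeogenic gene Pck1 (-3.10 ± 0.16) fell, while Trib3 rose by 0.74 ± 0.11.

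Liver genes with a known sex bias that depends on growth hormone were taken as 2 lists. Of 12 listed male-biased genes, 11 were tested. Among the 11, 3 fell and 0 rose with SQ1 (median -0.13), and 9 fell and 0 rose with pravastatin (median -1.14). Over all genes, 16.5% fell with SQ1 and 35.8% with pravastatin. The transporter gene Slco1a1 (-1.13 ± 0.12), the urinary protein gene Mup20 (-0.45 ± 0.090) and the protease inhibitor gene Serpina1e (-0.42 ± 0.054) fell with SQ1. The steroid hydroxylase gene Cyp2d9 (-2.65 ± 0.10), the fatty acid hydroxylase gene Cyp4a12a (-1.54 ± 0.16) and Serpina1e (-1.43 ± 0.054) fell with pravastatin. The hepatocyte markers had a median of -1.45 with pravastatin, and the part of such a shift in the male-biased falls was not tested.

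Of 15 listed female-biased genes, 8 were tested, and the rest were below the filter or had no matching name. Among the 8, 6 rose and 0 fell with SQ1 (median 0.85), and 1 rose and 4 fell with pravastatin (median -0.19). Among all genes, 15.7% rose and 16.5% fell with SQ1, and 30.9% rose and 35.8% fell with pravastatin. A probe can pass the filter on 4 treated arrays of 1 drug, so that a gene may enter through that drug alone. The list was written with earlier results of these data known. The cytochrome gene Cyp2b9 (1.73 ± 0.14), the thioesterase gene Acot3 (1.70 ± 0.10) and Cyp2b10 (1.32 ± 0.12) rose with SQ1. Cyp2b10 is also the standard target of the nuclear receptor CAR, and Acot3 of PPARα. With pravastatin, Prlr (-1.59 ± 0.16) and Acot3 (-0.80 ± 0.10) fell and Cyp2a4 (0.67 ± 0.15) rose. Cyp2 and Mup genes have close paralogs, whose RNA can bind the same probe.

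**Figure D4:**
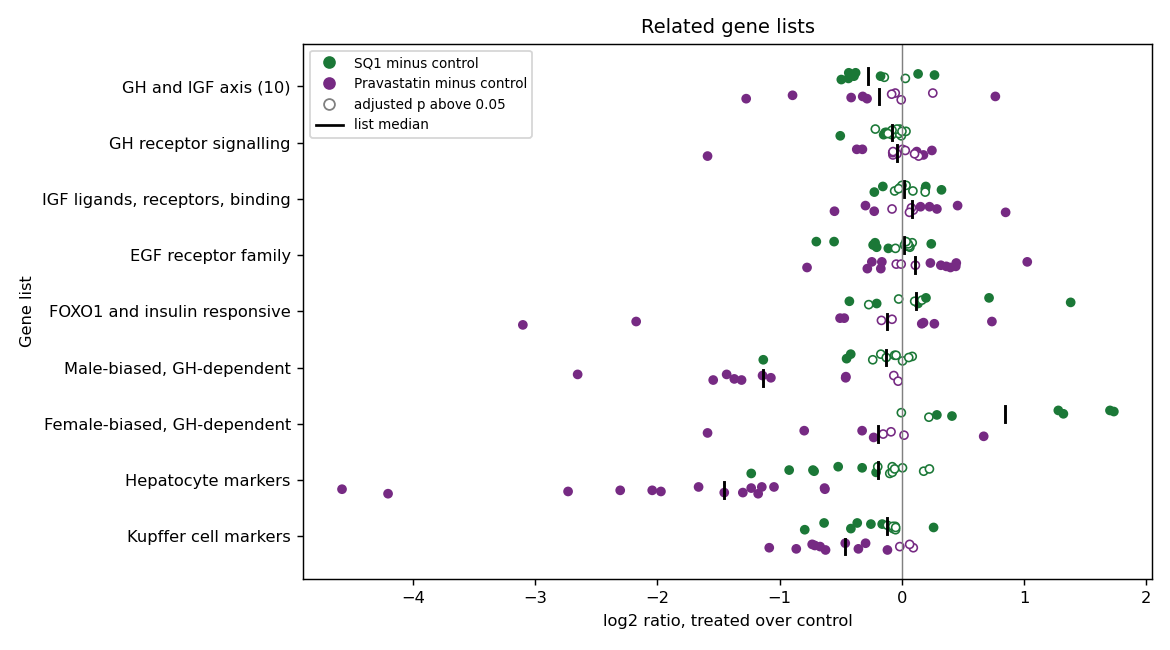
Log2 ratio of treated over control (horizontal axis) for each tested gene of the 10 and of related lists, SQ1 above pravastatin within a list. Filled points passed an adjusted p of 0.05, open points did not, and black bars are list medians. Medians of the female-biased list are 0.85 with SQ1 and -0.19 with pravastatin, and those of the male-biased list -0.13 and -1.14.

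The genes whose ratios over the 16 arrays lay nearest to those of a member, by root mean square difference of log2 ratios, are given as a description. For Ghr they were Tmem53 (0.12), Car8 (0.13) and Pter (0.13), each also low with pravastatin, between -1.29 and -1.18. For Igf1 they were Ier3 (0.14), Fjx1 (0.15) and Ext1 (0.21), with pravastatin ratios of 0.79 to 0.85. For Socs2 they were Zfp462 (0.18), Mtcl1 (0.20) and Fhl2 (0.20).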

How the data were processed

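RNA of treated and untreated hepatocytes was hybridised to 16 Agilent 2-colour mouse arrays, 8 per drug, from 500 ng of total RNA each. The deposited scanner files hold median spot and background intensities, unnormalized, and per the file headers a processed intensity and a log10 ratio from Agilent Feature Extraction 11.0.1.1, a program that the submitters' processing notes also name. The deposited series table holds log2 values, which followed Agilent's ratio with its sign set to treated over control (correlation per array 0.742 to 0.999). The design had assumed mean spot signals, and the files' medians were used.

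Median intensities were corrected by normexp (offset 50), normalized within each array by loess and averaged over the spots of a probe in R 4.3.3 with limma 3.58.1. Probes were named through RefSeq accessions, 27234 of 39429. A probe was tested if well above background on 4 treated arrays of a drug or in 8 control channels, with a ratio on 7 arrays of each drug, and the brightest tested probe stood for its gene. The fit (lmFit, eBayes) had 1 coefficient per drug and a gene-specific dye term, with 13 residual degrees of freedom, and adjusted p-values are Benjamini-Hochberg over 15053 genes. Ratios per array are given after removal of the dye term. Channel levels are after loess and Aquantile, and keep dye effects. Intensities of different probes are not compared as RNA amounts. On simulated data with 15053 genes, 76% of genes set at a log2 change of 0.25 were recovered for SQ1 and 86% for pravastatin, and 96% at 0.5 for each. The number of arrays limits the precision.

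The series calls the cultures biological replicates. Nothing says that they came from separate mice, so that p-values measure the spread between these arrays. Replicates 1 to 4 and 5 to 8 carry opposite dyes, and whether they are separate cultures or dye swaps of the same ones was not tested. If they are dye swaps, the p-values are too small. The Ghr ratio with pravastatin was -1.63 and -1.72 on replicates 1 and 5, and -0.84 and -0.76 on 4 and 8. With SQ1 it was -0.84 and -0.58, and -0.17 and -0.26. SQ1 and pravastatin arrays of 1 replicate number deviated together: all 8 correlations of their residuals were above 0.1 (0.22 to 0.72), though only 3 of 8 were highest for their own number. By this rule the numbers were taken to pair the arrays. The same sets of numbers share a slide in both drugs, so that the rule alone does not establish pairing by number. The fit above has no block, as designed, and fits with the number as a block are given where they change a call. The members and all lists were chosen with earlier results of these data known. The text names all 10 genes, the 3 called genes of each related list with the largest ratio per drug, and the 3 genes nearest to Ghr, Igf1 and Socs2. Of the genes this rule names, 1 is not reported here. Jak2 was added after its values were seen. List genes with no matching name on the array or below the filter were left out, Cd68, Mup7, Cyp3a41a and G6pc1 for want of a name. Alternatives changed the signal, normalization, filter, probes, blocks, dye term, weights, threshold and arrays used.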

Additional observations from a re-analysis of the deposited data

Results flagged for a closer look

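Igfals on pravastatin replicate 8 stood apart from the other 7 pravastatin arrays: its log2 ratio was -0.39, and the next lowest was -0.10. Of 20 groups of 8 arrays examined (10 genes, 2 drugs), this was 1, and chance alone flags about 1 group in 20.

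The drug effect differed between the 2 slides of a drug, in a fit with a coefficient per slide, for several genes. For SQ1, slide 1 minus slide 2 was 0.75 for Igf1 (adjusted p = 0.00147), 0.63 for Socs2 (adjusted p = 0.00187), 0.32 for Egfr (adjusted p = 0.0193), -0.33 for Ghr (adjusted p = 0.0417) and -0.22 for Stat5b (adjusted p = 0.0343). For pravastatin, slide 3 minus slide 4 was 0.82 for Socs2 (adjusted p = 0.000125), 0.44 for Igf1 (adjusted p = 0.0117), -0.63 for Ghr (adjusted p = 0.000511) and -0.40 for Stat5b (adjusted p = 0.000491). It was -0.57 for Igfbp1 (adjusted p = 0.0112), -0.30 for Igfbp2 (adjusted p = 0.0435) and -0.27 for Stat5a (adjusted p = 0.0161). Over all genes, 1847 of 15053 differed between the SQ1 slides and 3275 between the pravastatin slides. Slides differ in replicate numbers, and the pravastatin slides also in scan day, so that these cannot be told apart.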

How the results depend on the processing

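Over 30 member results, 880 values under alternatives were computed: 806 kept their side of the threshold, 66 lost a call, 8 gained one, and none of the called values changed sign. Of the lost calls, 51 were SQ1 against control. The pravastatin counts, 6 members and 10041 genes, stayed within 1.5 times throughout. With SQ1, the called members (8) were 4 at an adjusted p of 0.01, 2 with median centring in place of loess, 5 without the intensity filter, 4 under a slide block and 4 under a scan-day block (both random), and 4 to 8 leaving out 1 array. The called SQ1 genes (4860) were 3121 at 0.01, 2071 with median centring, 2543 with the slide block and 2239 with the scan-day block. For SQ1 minus pravastatin, members (9) were 5 at 0.01 and 5 with median centring, and genes (7996) were 3697 with median centring. The higher and lower split with SQ1 was 2369 and 2491, against 1473 and 598 with median centring. With pravastatin it was 4648 and 5393, against 4374 and 2797 with median centring and 6087 and 4622 with Agilent's processed signals. For SQ1 minus pravastatin it was 4407 and 3589, against 3918 and 4852 with the processed signals. The replicate block changed the call of Stat5b between the drugs (adjusted p = 0.0398 and 0.00762) and no other member's. Median centring also took Stat5a (adjusted p = 0.127) and Stat5b (adjusted p = 0.176) below the threshold with pravastatin and brought Socs2 past it (adjusted p = 0.0243). The causes were not tested.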
